A study of Homo sapiens with 2 samples.

Results

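The summits of Myocardin chromatin immunoprecipitation that lie at the genes of its partner and its relatives were examined: SRF, MRTFA and MRTFB. SRF encodes the serum response factor, the DNA-binding protein through which Myocardin acts. MRTFA (older name MKL1) and MRTFB (MKL2) encode the myocardin-related transcription factors. A summit is the single base given for a peak, and it was taken as a member when it lay within a gene span or the 10 kb on either side of it in the human assembly GRCh37. This rule gave 22 summits of the 105637 in the deposited list, with 2 at SRF, 11 at MRTFA and 9 at MRTFB. The cells were A549, a lung adenocarcinoma line, made to overexpress MYOCD stably from the vector pWPI and grown in serum-containing medium. An anti-Myocardin antibody was used on these overexpressing cells, and nonspecific IgG on the same cells, with 1 library each and no replicate. The question was where Myocardin sits in the genome of these cells. The list ties no summit to either antibody and gives no read counts, so the antibodies could not be compared, the depth is unknown, and every interval below covers counting error only. A line without the transgene and the level of endogenous SRF or of either related factor were not analysed here.

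SRF is a MADS-box protein that binds a short AT-rich element flanked by C and G pairs, the CArG box. It switches on growth-responsive early genes or muscle and cytoskeletal genes according to the coactivator it meets. Myocardin is the coactivator of smooth and cardiac muscle. MRTFA and MRTFB are its widely expressed relatives, which are held in the cytoplasm by monomeric actin and enter the nucleus when actin polymerises. The gene for SRF is itself a textbook target of SRF.

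The promoter of SRF is shown because its CArG boxes are the kind of site through which Myocardin is recruited, and that of MRTFA because it has the summit closest to a gene start. Each run holds the 250 bases before the gene start as RefSeq gives it in GRCh38.p14, 5' to 3' in the direction of transcription. Capitals mark CArG boxes in SRF and GC boxes (GGGCGG on either strand, here 2 overlapping copies read on the other strand) in MRTFA. The run of SRF is chr6:43171019-43171268 on the plus strand, and that of MRTFA is chr22:40636720-40636969 on the minus strand.
SRF: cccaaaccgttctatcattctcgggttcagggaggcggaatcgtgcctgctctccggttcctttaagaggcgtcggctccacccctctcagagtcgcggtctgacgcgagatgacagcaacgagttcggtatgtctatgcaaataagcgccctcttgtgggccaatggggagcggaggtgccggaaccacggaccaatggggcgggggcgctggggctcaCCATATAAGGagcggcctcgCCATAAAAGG
MRTFA: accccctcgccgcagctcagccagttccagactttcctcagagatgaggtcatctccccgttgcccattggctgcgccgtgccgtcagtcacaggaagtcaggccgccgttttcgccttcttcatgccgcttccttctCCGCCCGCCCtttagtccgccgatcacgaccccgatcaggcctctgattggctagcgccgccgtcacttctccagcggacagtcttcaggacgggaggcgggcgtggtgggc

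The SRF promoter held 2 CArG boxes, CCATATAAGG from 30 to 21 bases and CCATAAAAGG from 10 to 1 bases before the start. Among 35114 RefSeq promoters of the same length (250 bases before and 50 after a start), 1.29% held at least 1 CArG box and 0.0313% (11 promoters) held at least 2, on either strand. SRF also had 1 GC box, from 51 to 46 bases before its start. The MRTFA promoter had no CArG box and 3 GC boxes, of which 2 are marked above and the third spans the start itself. The MRTFB promoter had no CArG box and 1 GC box. GC boxes occurred in 45% of all promoters. The MCAT element of TEAD factors (CATTCC, in 14% of promoters) and the longer ETS sequence CCGGAAG (in 10.3%) were in none of these 3 promoters. The shorter ETS core GGAA was not counted, and both runs above hold it. Of the 6 further RefSeq promoters of these genes, none held a CArG box. An MCAT element was in 1 of them, at MRTFB. The deposited positions are in GRCh37 and these sequences in GRCh38.p14, so no base was read at any summit and the distance of a summit to a CArG box was not measured.

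Each of the 3 genes carried a summit close to the start of its given span. Distances to further RefSeq starts inside the genes were not measured. SRF spans 43139033 to 43149244 on chromosome 6 (10.2 kb, plus strand) and had a summit at 43139405, 372 bp downstream of its start, with a score of 10.6. MRTFA spans 40806292 to 41032690 on chromosome 22 (226 kb, minus strand) and had a summit at 41032682, 8 bp downstream of its start, with a score of 10.5. MRTFB spans 14165196 to 14360630 on chromosome 16 (195 kb, plus strand) and had a summit at 14165448, 252 bp downstream of its start, with a score of 21.0. All 3 summits thus lay inside the given spans. Exons, introns and UTRs of GRCh37 were not used here, so the feature under each summit is not given.

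Positions on a regular 10 kb grid along the same chromosomes were rarely so near a summit. On chromosome 6, 4.24% of 16777 grid positions had a summit within 1 kb and 1.57% had one as near as the start of SRF. On chromosome 22, 10.1% of 3517 positions had a summit within 1 kb and 0.114% had one within the 8 bp seen at MRTFA. On chromosome 16, 10.4% of 7908 positions had a summit within 1 kb and 2.73% had one as near as at MRTFB. The median grid position lay 20.8 kb from a summit on chromosome 6, 6.44 kb on chromosome 22 and 6.86 kb on chromosome 16.

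Other gene starts were also closer to summits than grid positions were. In a sample of 44 genes with GRCh37 positions, chosen without regard to these data, 22 starts (50%, with a Clopper-Pearson exact 95% interval from 34.6% to 65.4%) had a summit within 1 kb, and the median distance was 957 bp. The 3 of 3 starts of SRF, MRTFA and MRTFB allow a share from 29.2% upward by the same method, which includes that of the sample. With 3 genes it therefore cannot be told whether these starts carry summits more often than other gene starts. A summit within 8 bp of the start, as at MRTFA, occurred at 2 of the 44 sampled genes, within the 252 bp of MRTFB at 5, and within the 372 bp of SRF at 8.

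**Figure D1:**
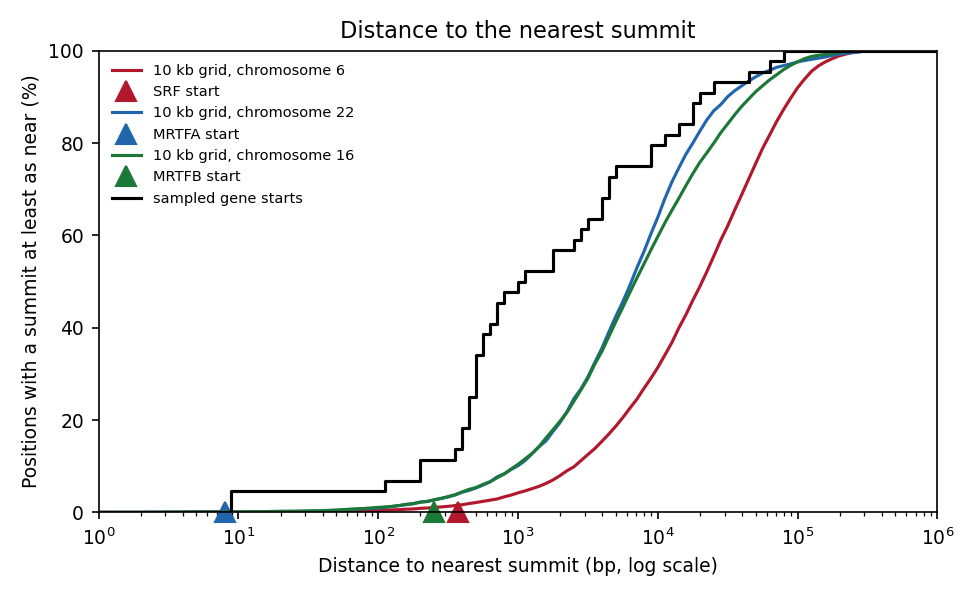
Share of positions (%) that have a summit at least as near as the distance on the x axis (bp, log scale), for 10 kb grids on chromosomes 6, 22 and 16 (coloured lines) and for 44 sampled GRCh37 gene starts (black steps). Triangles mark the nearest summit of SRF (372 bp), MRTFA (8 bp) and MRTFB (252 bp). The sampled starts reach 50% at 1 kb, above all 3 grids.

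The summits at the 3 starts differed in strength. The score was assigned by the authors' peak caller and has no unit in the file, so it serves only to rank summits within the list. It spanned 2.15 to 281 there, the median being 8.50 and the upper quartile 12.2. The MRTFB start summit was the strongest of its locus and exceeded 94.9% of the list and 96.0% of the summits of chromosome 16. The SRF start summit was the stronger of its locus and exceeded 66.4% of the list and 68.7% of chromosome 6. The MRTFA start summit was the third of its locus, above 65.7% of the list but above 82.9% of chromosome 22, where scores were lower (median 6.73, against 8.28 on chromosome 6 and 8.25 on chromosome 16). At the 22 sampled genes with a summit within 1 kb, that summit scored from 3.49 to 26.3 with a median of 13.5. Of these 22, 13 reached the upper quartile of the list. All 3 start summits fell in that range, as did most of the list. Those of SRF and MRTFA lay below the sample median and that of MRTFB above it.

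SRF had 1 further summit, at 43147273, which lies 8240 bp into the gene at 80.7% of its length. Its score of 5.69 exceeded 17.2% of the list. No summit lay in the 10 kb before SRF or the 10 kb after it. In the RefSeq table of GRCh38.p14 the nearest protein-coding neighbours are PTK7 before SRF and CUL9 after it, at 9.55 and 0.69 kb, so these flanks include sequence of both.

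**Figure D2:**
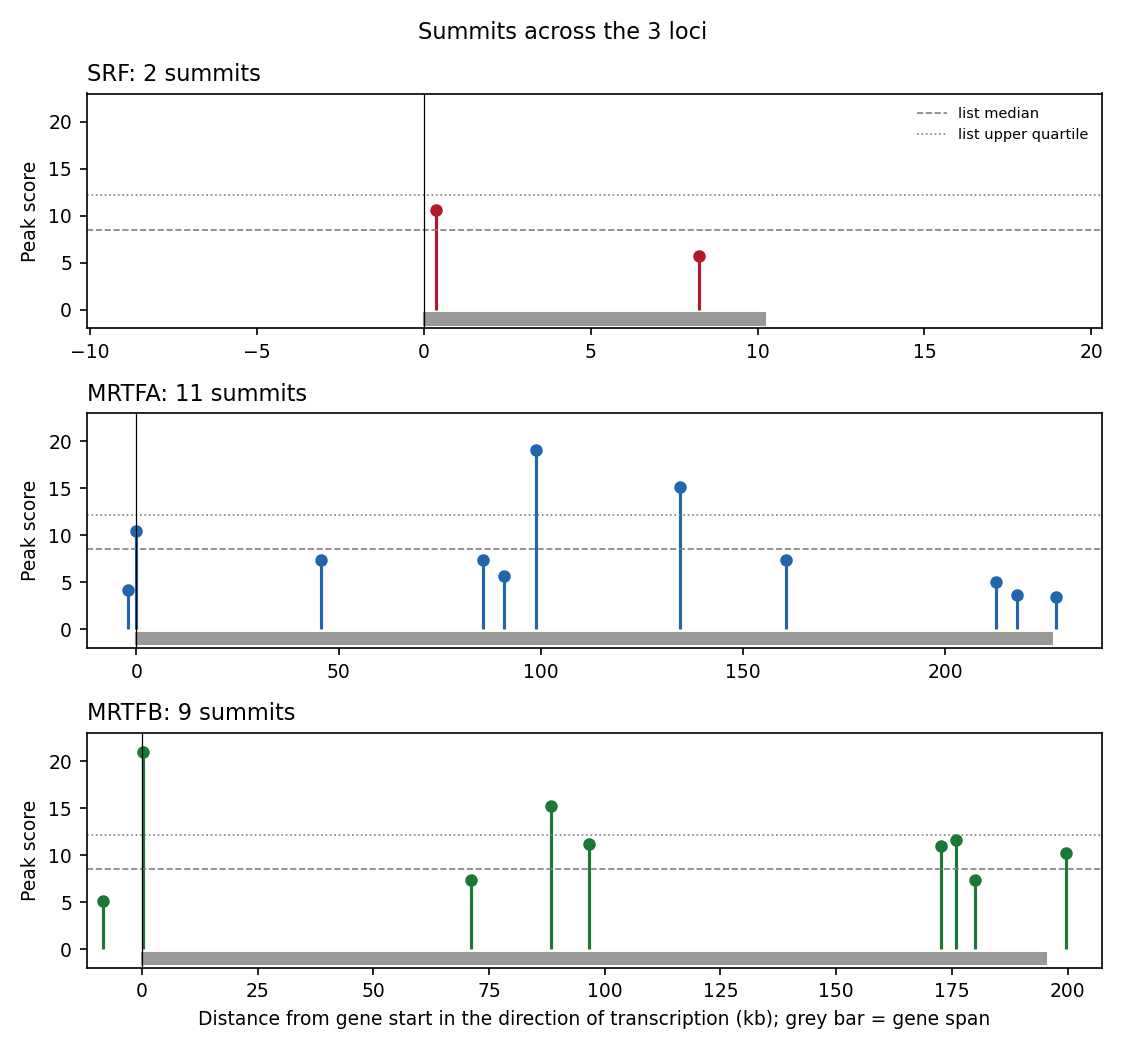
Peak score (y axis) of each summit against its distance from the gene start in the direction of transcription (x axis, kb) at SRF, MRTFA and MRTFB; the grey bar is the gene span, and the lines mark the list's median (8.50) and upper quartile (12.2). Each gene has a summit at the start of its span, with scores of 10.6, 10.5 and 21.0. The long genes carry further summits separated by stretches of up to 51.8 and 76.1 kb.

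MRTFA carried its strongest summits in the middle of the gene, not at the start of the given span. RefSeq in GRCh38.p14 also lists MRTFA starts inside the gene, whose distances to the gene end fell 102860 and 173247 bp short of that span. The distance of summits to these inner starts was not measured. The strongest, at 40933959, lay 98.7 kb from the start (43.6% of the gene length) with a score of 19.1, above 92.7% of the list and 97.4% of chromosome 22. The next, at 40898352, lay 134 kb from the start with a score of 15.2. Both belong to the top 25% of scores, so that 2 of the 11 MRTFA summits did, against 10.9% of the 1884 summits of chromosome 22. The share at MRTFA is 18.2%, with an interval from 2.28% to 51.8% by the same exact method, so 11 summits do not tell it from that of the chromosome.

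Apart from the start summit and the stronger summits in the middle of the gene, the summits of MRTFA scored below the median of the list. A summit at 41034636, 1946 bp before the start and 1954 bp from the start summit, scored 4.19. Summits 45.6, 85.7 and 161 kb into the gene all had the score 7.37, above 57.1% of the summits of chromosome 22, and the one at 91.0 kb had 5.64. Toward the end of the gene the scores were 5.02 at 213 kb and 3.67 at 218 kb. The last summit, at 40805439 and 853 bp past the end, had 3.46, the lowest score of the 22 summits. That end adjoins SGSM3 in the GRCh38.p14 table, so the end flank of MRTFA is also SGSM3 sequence.

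MRTFB showed its strongest summit at the start of the given span, and a run of sequence without any summit followed. RefSeq in GRCh38.p14 also lists an MRTFB start inside the gene, whose distance to the gene end fell 115341 bp short of that span. The distance of summits to this inner start was not measured. The next summit inside the gene, at 71.0 kb, scored 7.37, so 70.7 kb after the start summit held none. A middle group followed with 15.3 at 88.5 kb and 11.2 at 96.5 kb. After a further 76.1 kb without a summit, a group of 3 near the gene end scored 11.0 at 173 kb, 11.6 at 176 kb and 7.36 at 180 kb. The flanks held a summit of score 5.13, 8501 bp before the start, and one of 10.2, 4287 bp past the end. Of the 9 MRTFB summits 2 lay in the top 25% of scores, against 22.5% of the 4410 summits of chromosome 16.

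Such stretches were not rare on these chromosomes. The longest stretch between neighbouring summits of the MRTFB locus, 76.1 kb, was reached by 3.68% of the 4408 distances between adjacent summits on chromosome 16, and these made up 28.4% of its covered length. At MRTFA the longest stretch was 51.8 kb, reached by 5.47% of the distances on chromosome 22, which made up 28.0% of its covered length. The median distance between adjacent summits was 11.8 kb on chromosome 22 and 9.69 kb on chromosome 16.

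Of all 22 summits, 18 lay in the genes, 2 in the flanks before the starts and 2 in the flanks after the ends. The first 10 kb of the 3 genes held 4 summits in 30.0 kb, or 1.33 per 10 kb. The remaining 402 kb of gene sequence held 14, or 0.348 per 10 kb, and the flanks before and after held 0.667 per 10 kb each. Per gene, the first 10 kb held 2 summits at SRF, 1 at MRTFA and 1 at MRTFB. The first value thus rests on 4 summits, of which 3 are the start summits already described. Each flank held 1 summit at MRTFA and MRTFB and 0 at SRF. At MRTFA and MRTFB the first 10 kb therefore held no more summits than either flank, and the higher pooled value came from SRF. SRF gave only 212 bp to the rest of the gene. The rest of the gene was alike in MRTFA and MRTFB, with 0.370 and 0.324 summits per 10 kb.

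The number of summits at each gene was also set against all windows of equal length on the same chromosome, taken at a 10 kb step within the sequence that the list covers. The window of SRF (30.2 kb) held 2 summits. On chromosome 6, 16.6% of 16767 such windows held at least as many, 58.6% held none and the highest held 8, with a median of 0 and an interquartile range of 0 to 1. SRF with 2 summits thus lay above the interquartile range, and for the gene span without flanks 96.6% of windows held fewer summits than SRF. The window of MRTFA (246 kb) held 11 summits, and 69.6% of 3443 windows on chromosome 22 held at least as many, with a median of 14 and an interquartile range of 9 to 17. The window of MRTFB (215 kb) held 9 summits, and 56.4% of 7822 windows on chromosome 16 held at least as many, with a median of 10 and an interquartile range of 4 to 19. MRTFA and MRTFB lay within the interquartile range of their chromosomes, and SRF did not. Windows at this step overlap and share summits, so these shares are descriptions without a p-value.

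**Figure D3:**
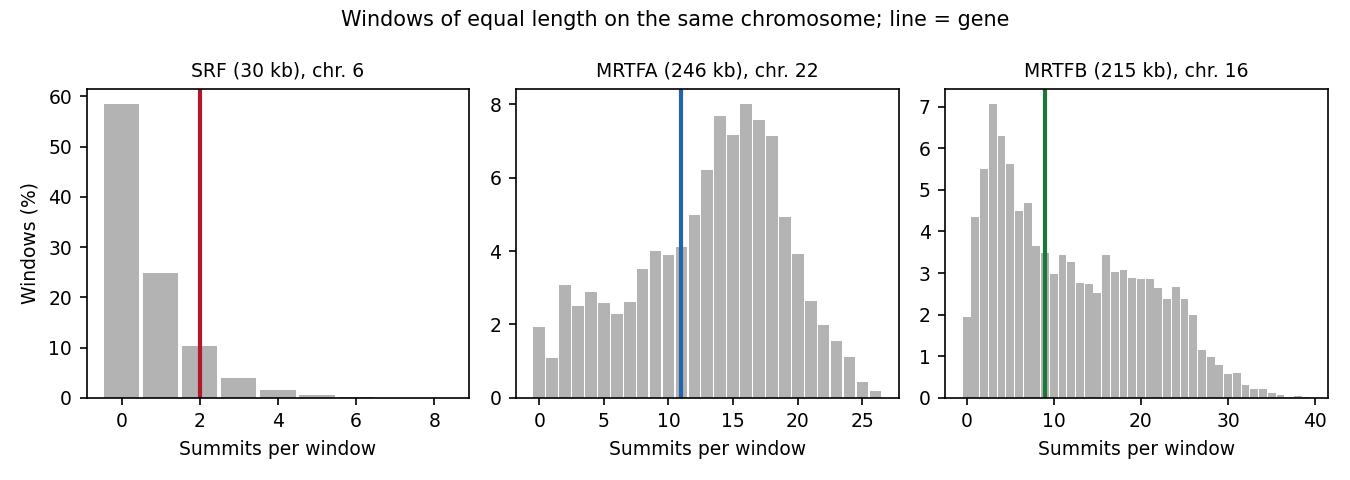
Share of windows (%, y axis) by the number of summits they hold (x axis), for all windows of the length of the SRF, MRTFA and MRTFB windows on chromosomes 6, 22 and 16. The coloured line marks the gene itself, at 2, 11 and 9 summits. The line of SRF lies in the upper tail of a distribution dominated by empty windows, and those of MRTFA and MRTFB lie near the middle.

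As densities, SRF carried 66.2 summits per Mb against 22.5 over the covered sequence of chromosome 6, a ratio of 2.94 (95% interval 0.357 to 10.6, from the exact binomial interval of its share of the chromosome's summits). MRTFA carried 44.6 per Mb against 53.6 on chromosome 22, a ratio of 0.833 (0.416 to 1.49). MRTFB carried 41.8 per Mb against 55.8 on chromosome 16, a ratio of 0.749 (0.343 to 1.42). Each interval includes 1, so with the 10 kb flanks none of the 3 densities could be told from that of its chromosome. For the SRF span without flanks, which holds the same 2 summits, the ratio was 8.71 (1.06 to 31.4). That interval lies above 1, but it treats summits as placed independently and rests on 2 summits. It does not cover uneven density along the chromosome, so it does not set SRF apart. Against all autosomes together the ratio was 1.74 (0.211 to 6.30) for SRF, and those of MRTFA and MRTFB passed to the other side of 1, at 1.18 (0.587 to 2.10) and 1.10 (0.503 to 2.09).

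SRF lay in a stretch of chromosome 6 that was rich in summits as a whole. With 50 kb on either side of the gene, 10 summits fell in 110 kb. The ratio to the chromosome was 4.04 (1.94 to 7.41), an interval above 1 that again treats summits as placed independently. The surrounding sequence, 1 Mb on either side, carried 59.6 summits per Mb, and against this the SRF window had a ratio of 1.11 (0.135 to 3.93). For MRTFA the ratio to the surrounding sequence was 0.822 (0.418 to 1.42) and for MRTFB 1.04 (0.486 to 1.88). The surrounding 1 Mb carried 54.3 summits per Mb at MRTFA and 40.2 at MRTFB.

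Scores of the 22 summits ran from 3.46 to 21.0 with a median of 7.37, below the median of the list. In the top 25% of scores lay 4 of them (18.2%, with a 95% interval from 5.19% to 40.3% by the same exact method). The share in the list was 26.3%, where tied scores at the limit carry the share past 25%. With the top 25% taken on each chromosome separately, 6 of the 22 summits (27.3%) lay in it, against 25.2% of the list. SRF contributed none of its 2, where 24.6% of chromosome 6 lay in that range. The median was 7.37 at MRTFA, against 6.73 on chromosome 22, and 11.0 at MRTFB, against 8.25 on chromosome 16. Scores recur in this list. A score shared by at least 150 summits was found at 8 of the 22 (4 at MRTFA, 4 at MRTFB and 0 at SRF), against 29.4% of all summits. The score 7.37 alone, which stands at 3 MRTFA summits and 1 MRTFB summit, was shared by 4026 summits of the list, so these 4 cannot be ranked among themselves. The 3 start summits had uncommon scores, shared by 13 summits of the list for SRF, 18 for MRTFA and 4 for MRTFB, each count including the summit itself.

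**Figure D4:**
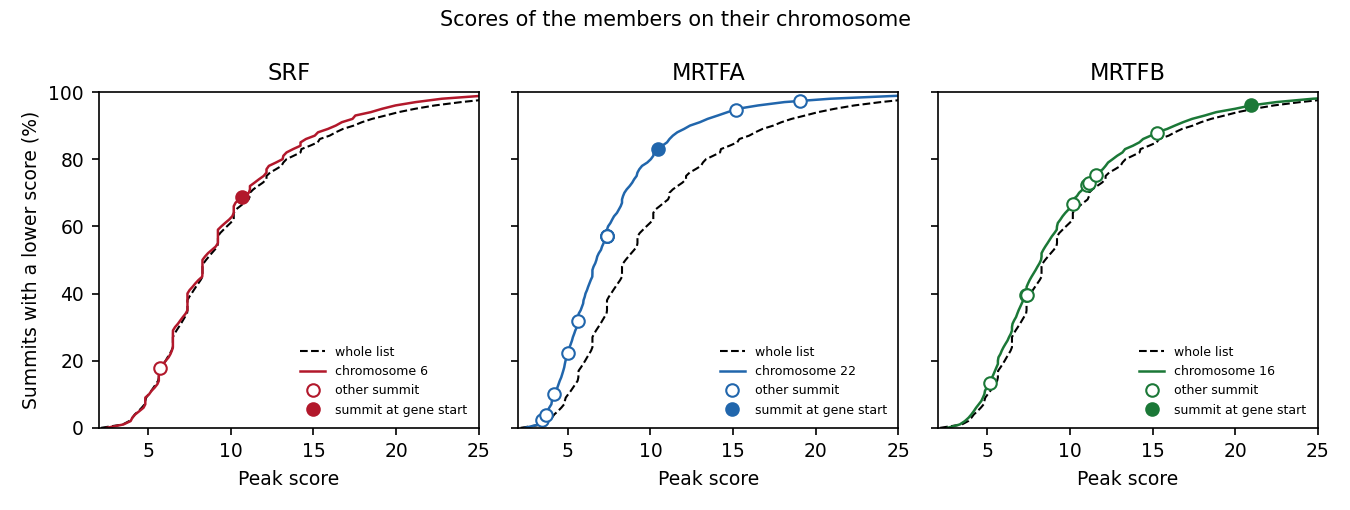
Share of summits with a lower score (%, y axis) against peak score (x axis) on chromosomes 6, 22 and 16 (coloured lines) and in the whole list (dashed), with the summits of SRF, MRTFA and MRTFB as points; filled points are the summits at the gene starts. The start summits stand at 68.7%, 82.9% and 96.0% of their chromosomes, and the 2 strongest MRTFA summits (15.2 and 19.1) lie above its start summit.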

How the data were processed

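Chromatin of MYOCD-overexpressing A549 cells was precipitated with anti-Myocardin or IgG (1 library each, per the labels). The authors deposited 1 list for both, with a peak score per 1 bp interval. Per the file headers it gives chromosome, start, end, strand and score, and no value per sample (columns of other samples: 0). Other deposited columns hold positions, and the end was read as the summit. The sources used here do not give caller settings, aligner, duplicate handling or whether IgG served as control. The submitters' processing notes name CASAVA 1.4, mm9 and GRCh38.p12. Of the summits, 1093 lie past chromosome ends of GRCh38 and 0 past those of GRCh37 (lengths from GenomeInfoDb 1.38.1), and the gene spans were given in GRCh37.

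Covered sequence ran from the first to the last summit of a chromosome minus stretches of at least 1 Mb without a summit. All windows and grid positions at a 10 kb step were used in place of random ones, leaving out windows that overlapped the gene's own. The 44 sampled genes come from a partial GRCh37 table shipped with GenomicFeatures 1.54.1, using the outermost start of each gene. For motifs, the RefSeq entry whose distance to the gene end was nearest the given span length was taken (differing by 26, 32 and 26 bp for SRF, MRTFA and MRTFB). All 3 symbols matched. Intervals are exact Clopper-Pearson at 95%. No p-value was computed, since 1 list has no replicates. Python 3.11.15 with scipy 1.17.1 was used, and the counting was tested on simulated lists. A planned comparison of protein sequences was not run. Genes named at the loci were the members and their direct protein-coding neighbours within the 10 kb flanks. Summits to be named were the strongest of each locus, the nearest to each start and all of SRF. The other MRTFA and MRTFB summits, named so that every member is accounted for, fall outside that rule. RefSeq in GRCh38.p14 also lists other genes inside MRTFA and MRTFB, and summits were not assigned to them. Members and lists were chosen with earlier results of these data known.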

Additional observations from a re-analysis of the deposited data

How the results depend on the processing

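Of 38 alternatives over 10 results, 23 stayed within the interval of the value reported (for distances, at the same summit), and 15 moved outside it. For shares of windows, that interval took overlapping windows as independent and was therefore too narrow (82.8% to 83.9% for SRF). Small shifts of these shares, such as 43.6% to 42.5% for MRTFB, were thus counted as moves, and the count does not measure robustness. Several density ratios, whose intervals included 1, crossed to the other side of 1. MRTFA went from 0.833 to 1.39 with the top 25% of scores, 1.18 against all autosomes and 1.03 with 50 kb flanks, and MRTFB from 0.749 to 1.10 against all autosomes and 1.04 against its 1 Mb surroundings. With only the top 25% of scores, the SRF window held no summit, so its density ratio (2.94 over all scores) and its share of windows with fewer summits were both 0, and its start was 72183 bp from a summit. In the same setting the start of MRTFA was 98731 bp from a summit, while that of MRTFB kept its summit at 252 bp. For these strong summits, 51.7% of grid positions on chromosome 6 were as near as the SRF start. On chromosome 22, 62.1% were as near as the MRTFA start, and on chromosome 16, 0.620% as near as the MRTFB start. The share of windows with fewer summits was then 62.6% for MRTFA (30.4% over all scores) and 34.6% for MRTFB (43.6%). Against windows of all autosomes it was 69.96% for SRF (83.4% on chromosome 6), 67.0% for MRTFA and 64.4% for MRTFB. Among windows with a summit it was 59.9% for SRF and 42.5% for MRTFB. Without flanks it was 96.6% for SRF, 26.0% for MRTFA and 38.4% for MRTFB. Of the 22 summits, 45.5% scored at or above the list's median, against 50.01% of the list. A cut at the median takes in every summit of the top 25%, so this share could not fall below the 18.2% there. It was counted as a move although the cuts differ. The causes were not tested. The 1 Mb surroundings and the sampled gene starts were added after seeing the data. No paired analysis was possible because each antibody has 1 library and the list carries no sample values. For the same reason no replicate could be left out. Read counts were not analysed here, and no limit from depth is stated.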
